A study of Mus musculus with 6 samples.

Results

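The NF-κB transcription factors and their inhibitors were followed in mouse CD4+ T cells cultured with the drug idelalisib. The set holds 10 genes, chosen by symbol: the Rel family factors Nfkb1, Nfkb2, Rel, Rela and Relb, and the inhibitor genes Nfkbia, Nfkbid, Nfkbie, Nfkbiz and Tnfaip3. All 10 were found among the 54532 genes of the count table, and all 10 passed the filter on low counts that left 14530 genes for testing.

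The study compared 2 groups of 3 libraries. Idelalisib, which blocks the PI3Kδ lipid kinase of leukocytes, was present in one group and absent from the other. Both groups were CD4+ T cells purified from spleens of C57BL/6 mice and held for 72 h under Th1 conditions, which steer T cells towards the T helper 1 fate. The sources used here do not give the drug's dose, the age of the mice or any solvent in control cultures. The labels call the libraries biological replicates but do not state if each had its own mouse. The p-values therefore speak only of how much these cultures varied, and how much of that is technical is not known.

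NF-κB proteins are dimers that T cells hold in the cytoplasm until a receptor signal frees them. In the canonical route, the T cell receptor acts through a kinase and a scaffold on the IKK complex, which marks the IκB proteins for destruction. In the non-canonical route, TNF family receptors stabilise the kinase NIK, which drives processing of p100. Several inhibitor genes are themselves NF-κB targets, so that the pathway makes its own brakes.

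Total counts ranged from 13372318 to 16035945 in idelalisib libraries and from 14879325 to 16770452 in control libraries. Idelalisib replicate 2 stood farthest from its group, with a correlation of log2 CPM of 0.987 and 0.988 to the other idelalisib libraries, against 0.991 between those. The CD4+ T cell markers matched the label, since all 9 were expressed and their summed level was 3063 to 3350 CPM with idelalisib and 3221 to 3280 CPM in controls. CPM is the usual depth-normalised read count, here after scaling with trimmed mean of M-values (TMM) factors.

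Of the 10 genes, idelalisib libraries had 4 at a lower and 1 at a higher level, and 5 were not called. A call is an adjusted p under 0.05 in edgeR's quasi-likelihood fit over all genes. In bulk libraries, fewer cells of a type and less RNA per cell cannot be told apart. Among all genes tested, 22.4% were lower, 22.2% were higher and 44.6% were called in either direction, so a count of 5 in 10 was near the background. Groups did not overlap in CPM for 6 of the 10 genes, against 54.6% of all genes tested. The median log2 fold change was -0.19 over the 10 genes and 0.01 over all genes tested. Tnfaip3 fell 3.18-fold and Nfkbiz 2.23-fold, while each of the other 8 genes had a log2 fold change between -0.42 and 0.45.

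**Figure D1:**
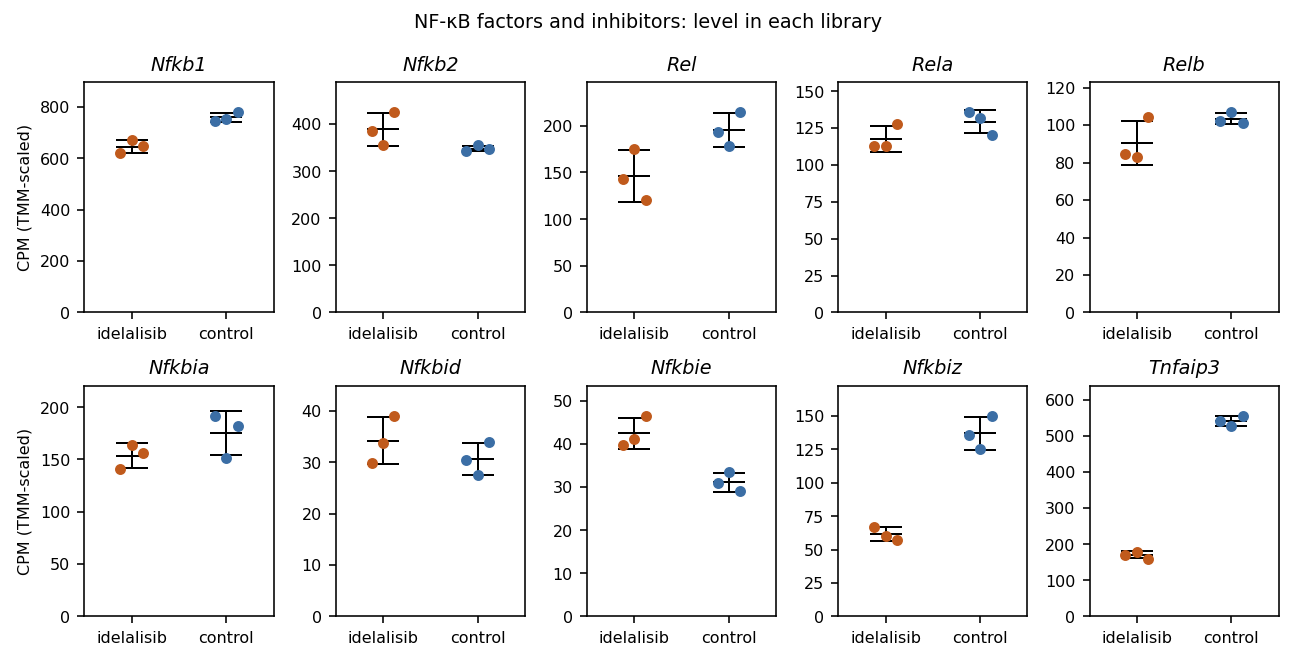
TMM-scaled CPM (vertical axis, starting at 0) of the 10 genes in the 3 idelalisib and the 3 control libraries. Points are libraries, and bars are the mean ± SD. The groups lie far apart for Tnfaip3 (160.1 to 179 CPM with idelalisib, 526 to 555 CPM in controls) and Nfkbiz (57.0 to 67.1 CPM with idelalisib, 125 to 150.0 CPM in controls), and overlap for Rela, Relb, Nfkbia and Nfkbid.

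Among the Rel factors, the 2 genes called were the precursor gene Nfkb1 and the c-Rel gene Rel, both lower. Nfkb1 (ENSMUSG00000028163, mm10 chromosome 3, 135584655 to 135691547, minus strand) encodes p105, the precursor of the DNA-binding subunit p50 and, uncleaved, an IκB-like inhibitor. It had 619, 669 and 646 CPM in idelalisib libraries, against 745, 752 and 779 CPM in control libraries. Every idelalisib library lay below every control library. The log2 fold change was -0.23 (SE 0.07, edgeR adjusted p = 0.0185). That call was lost when idelalisib replicate 1 or any of the 3 control libraries was left out (adjusted p = 0.0558 to 0.0879), and with scaling by library size alone (log2 fold change -0.08, adjusted p = 0.381). Under that scaling the median over all genes was 0.16 in log2 fold change, with 4832 genes higher and 2219 lower, against 3223 higher and 3256 lower with TMM.

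Rel (ENSMUSG00000020275, chromosome 11, 23736847 to 23770970, minus strand) encodes c-Rel, a transactivating subunit made mainly by lymphoid and myeloid cells. It had 143, 175 and 120.0 CPM with idelalisib and 193, 179 and 215 CPM in controls. The groups did not overlap, but idelalisib replicate 2 came within a few CPM of control replicate 2. The log2 fold change was -0.42 (SE 0.12, edgeR adjusted p = 0.0128). It was -0.57 without idelalisib replicate 2 (adjusted p = 1.59e-05) and -0.29 without idelalisib replicate 3, and the call was lost without idelalisib replicate 1 or control replicate 3 (adjusted p = 0.0571 and 0.0589), and with scaling by library size alone (-0.27, adjusted p = 0.0920).

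The other Rel factors were not called. Nfkb2 (ENSMUSG00000025225, chromosome 19, 46304737 to 46312090, plus strand) encodes p100, precursor of p52 and the substrate of the non-canonical route. It had 386, 355 and 425 CPM with idelalisib and 343, 355 and 346 CPM in controls. Idelalisib replicate 2 stood level with the highest control and the other idelalisib libraries stood above it. The log2 fold change was 0.16 (SE 0.08, 95% interval -0.02 to 0.34, edgeR adjusted p = 0.128), and Nfkb2 was called higher without idelalisib replicate 2 (log2 fold change 0.23, adjusted p = 0.0110) and with library size alone (0.31, adjusted p = 0.00549). Its level is less certain than the others', since 14.9% of the 50-base words of its GENCODE M21 transcripts also occur in transcripts of other genes, against at most 0.674% for any other gene of the set, and its last 4 bases overlap Psd on the opposite strand. Nfkb1 holds the gene model Gm43430 on its own strand (135650670 to 135654566), to which 873 reads were assigned over the 6 libraries.

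Rela (ENSMUSG00000024927, chromosome 19, 5637483 to 5648130, plus strand) encodes p65, the main transactivating partner of p50. It had 113, 113 and 128 CPM with idelalisib and 136, 132 and 120.4 CPM in controls. The groups overlapped, since idelalisib replicate 3 was above control replicate 3. Its log2 fold change was -0.13 (95% interval -0.32 to 0.05, edgeR adjusted p = 0.220), and its sign turned with scaling by library size alone (0.02).

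Relb (ENSMUSG00000002983, chromosome 7, 19606217 to 19629438, minus strand) encodes RelB, the partner of p52. It had 84.4, 82.8 and 104 CPM with idelalisib and 102, 107 and 101 CPM in controls. Idelalisib replicate 3 lay within the control range and the other 2 idelalisib libraries lay below it. The log2 fold change was -0.19 (95% interval -0.40 to 0.01, edgeR adjusted p = 0.116), and Relb was called lower when idelalisib replicate 3 was left out (-0.30, adjusted p = 0.00722).

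The largest difference of the set was in Tnfaip3 (ENSMUSG00000019850, chromosome 10, 19000910 to 19015657, minus strand). It encodes A20, a ubiquitin-editing enzyme that shuts off IKK activation downstream of TNF, interleukin-1 and T cell receptors. Tnfaip3 had 170.2, 179 and 160.1 CPM with idelalisib, against 541, 526 and 555 CPM in controls. The lowest control library was far above the highest idelalisib library. Tnfaip3 fell 3.18-fold (log2 fold change -1.67, SE 0.08, edgeR adjusted p = 5.41e-09). Among 1597 genes with a negative fold change that averaged at least 100 CPM, its fall ranked 15. The log2 fold change stayed between -1.70 and -1.51 in all 14 alternative fits, with an adjusted p of at most 1.40e-06.

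Nfkbiz (ENSMUSG00000035356, chromosome 16, 55811375 to 55838899, minus strand) encodes IκBζ, an atypical nuclear IκB that works with p50 as a cofactor at selected genes more than as a cytoplasmic inhibitor. It had 67.1, 60.3 and 57.0 CPM with idelalisib and 136, 125 and 150.0 CPM in controls. Each idelalisib library was well under the lowest control. Nfkbiz fell 2.23-fold (log2 fold change -1.16, SE 0.09, edgeR adjusted p = 5.94e-07). It remained between -1.22 and -1.003 over the alternative fits.

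Nfkbie was the gene called higher. Nfkbie (ENSMUSG00000023947, chromosome 17, 45555703 to 45563169, plus strand) encodes IκBε, a typical IκB that holds c-Rel and p65 dimers in the cytoplasm. It had 39.7, 41.2 and 46.5 CPM with idelalisib and 30.8, 33.4 and 29.1 CPM in controls. The groups did not overlap. It rose 1.36-fold (log2 fold change 0.45, SE 0.10, edgeR adjusted p = 0.00262), with a call in all 14 alternative fits (log2 fold change 0.39 to 0.60).

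Nfkbia and Nfkbid were not called. Nfkbia (ENSMUSG00000021025, chromosome 12, 55489410 to 55492647, minus strand) encodes IκBα, the classical IκB that is destroyed and resynthesised within one round of signalling. It had 141, 164 and 156 CPM with idelalisib and 192, 151 and 182 CPM in controls. Control replicate 2 lay among the idelalisib libraries. The log2 fold change was -0.19 (95% interval -0.40 to 0.02, edgeR adjusted p = 0.128), and Nfkbia was called lower without control replicate 2 (-0.29, adjusted p = 0.0416) or without idelalisib replicate 2 (-0.23, adjusted p = 0.0402).

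Nfkbid (ENSMUSG00000036931, chromosome 7, 30421732 to 30428746, plus strand) encodes IκBNS, another nuclear IκB. It had 29.8, 33.8 and 39.0 CPM with idelalisib and 30.4, 27.6 and 34.0 CPM in controls, and the groups overlapped. Its log2 fold change was 0.16 (95% interval -0.10 to 0.42, edgeR adjusted p = 0.291), and it was called higher with library size alone (0.31, adjusted p = 0.0380).

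Of the inhibitor genes, 3 that textbooks describe as NF-κB targets differed in their calls: Tnfaip3 fell, Nfkbie rose and Nfkbia was not called. Their promoters are shown to let the reader compare the κB-like letters ahead of them. The sequences are RefSeq's, build GRCm38.p6, 5′ to 3′ on the gene's strand, from 250 bases before to 50 after RefSeq's start. Capitals mark each match, on either strand, to GGNNNTTCC, 9 letters shared by many κB sites. Tnfaip3 is at chr10:19015361-19015660 (minus), Nfkbia at chr12:55492598-55492897 (minus) and Nfkbie at chr17:45555450-45555749 (plus).
Tnfaip3: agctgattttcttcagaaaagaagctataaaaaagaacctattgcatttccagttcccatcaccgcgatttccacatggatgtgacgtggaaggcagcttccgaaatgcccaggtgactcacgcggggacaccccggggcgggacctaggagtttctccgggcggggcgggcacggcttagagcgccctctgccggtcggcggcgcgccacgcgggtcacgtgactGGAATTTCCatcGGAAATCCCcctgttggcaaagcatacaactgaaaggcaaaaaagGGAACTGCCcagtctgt
Nfkbia: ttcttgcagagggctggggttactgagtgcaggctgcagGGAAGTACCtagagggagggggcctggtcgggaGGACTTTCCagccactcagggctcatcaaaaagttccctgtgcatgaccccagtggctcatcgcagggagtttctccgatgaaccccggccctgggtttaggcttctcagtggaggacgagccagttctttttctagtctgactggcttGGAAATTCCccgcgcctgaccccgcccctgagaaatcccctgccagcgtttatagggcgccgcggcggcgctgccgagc
Nfkbie: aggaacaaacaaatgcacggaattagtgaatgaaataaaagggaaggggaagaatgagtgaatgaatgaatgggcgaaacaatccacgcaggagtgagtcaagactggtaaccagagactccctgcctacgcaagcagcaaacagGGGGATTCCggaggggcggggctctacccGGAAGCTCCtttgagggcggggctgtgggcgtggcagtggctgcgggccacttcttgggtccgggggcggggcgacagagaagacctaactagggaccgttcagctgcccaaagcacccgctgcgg

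Tnfaip3 and Nfkbia held matches at 3 places each and Nfkbie at 2. In Tnfaip3 the pair nearest the start lay 24 and 12 bases before it, and the first of them reads as a match on both strands. In Nfkbia the match 29 bases before the start also reads on both strands. Of all 32851 promoter windows in the RefSeq table, 18.5% held this motif. RefSeq windows were found for 7 of the 10 genes (12 windows, with several starts for Nfkb2, Nfkbid and Tnfaip3), and not for Nfkb1, Relb and Nfkbiz. Of those 7 genes, 6 had a match in at least 1 window, namely Nfkb2, Rel, Nfkbia, Nfkbid, Nfkbie and Tnfaip3, and Rela had none. Counted by gene, 20.7% of all 27025 genes with a window had a match. By window, 10 of the 12 held one, though 2 of the Nfkb2 windows overlap and share a match. The stricter letters GGGNNTTCC, which are a subset of the first motif, occurred in 5 of the 12 windows, against 5.82% of all windows. A match describes these letters and is not a bound site. Genes with matches included called falls, a called rise and genes that were not called.

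**Figure D2:**
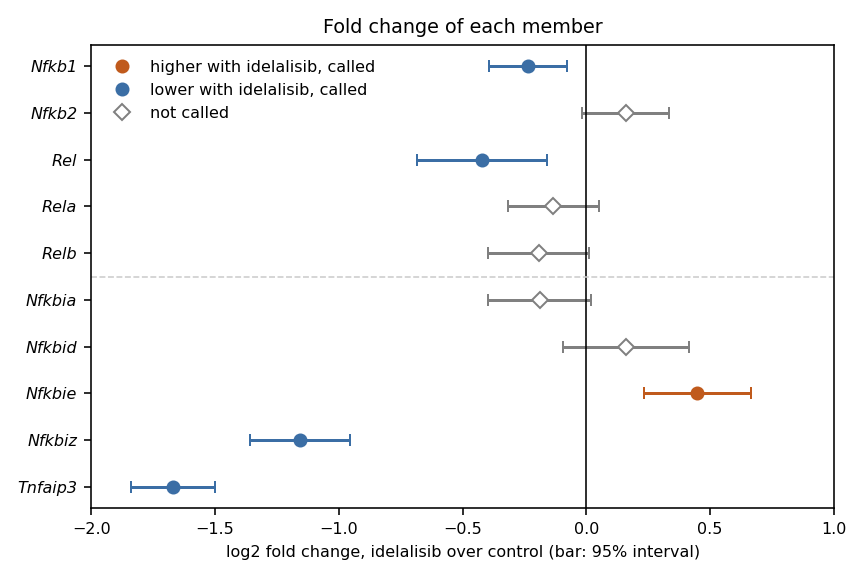
Log2 fold change of idelalisib over control for the 10 genes, with 95% intervals from the edgeR fit. The Rel factors stand above the dashed line and the inhibitors below it. The intervals of Tnfaip3 (-1.84 to -1.50) and Nfkbiz (-1.36 to -0.96) lie apart from those of the other 8 genes.

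**Figure D3:**
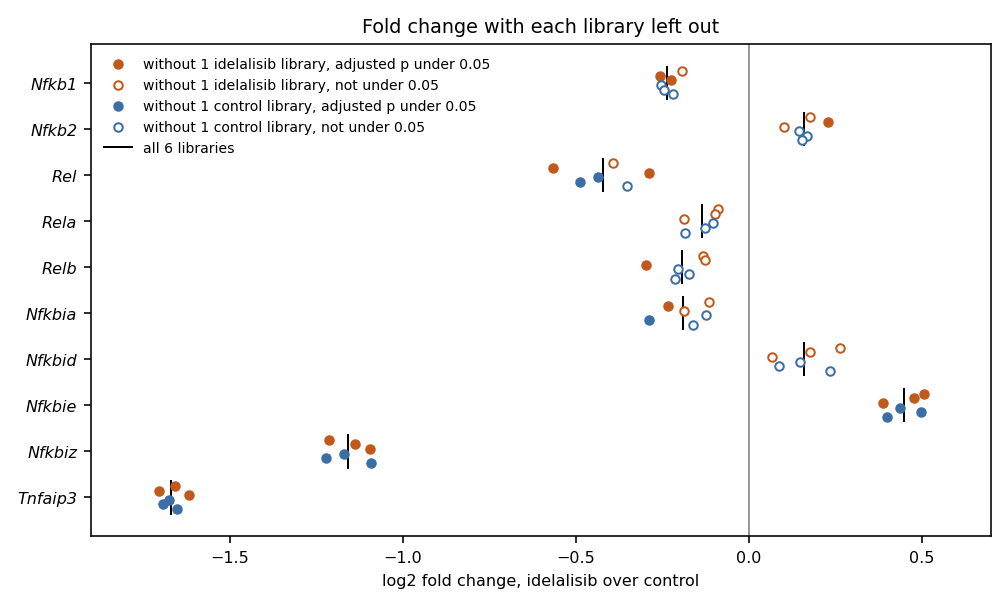
Log2 fold change of idelalisib over control when each of the 6 libraries was left out in turn. Filled points had an adjusted p under 0.05, open points did not, and black lines mark the fit on all libraries. Tnfaip3, Nfkbiz and Nfkbie have filled points throughout, whereas those of Nfkb1, Nfkb2, Rel, Relb and Nfkbia change with the library left out.

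Within the idelalisib group, the order of the libraries differed from gene to gene. Idelalisib replicate 3 had the highest level of its group for Nfkb2, Rela, Relb, Nfkbid and Nfkbie, and the lowest for Rel, Nfkbiz and Tnfaip3. Idelalisib replicate 2 had the highest level of its group for Nfkb1, Rel, Nfkbia and Tnfaip3, and the lowest for Nfkb2 and Relb. With 3 libraries these orders are a description, with no test.

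Dividing CPM by gene length put the genes on a common scale. By the length in the deposited table, the order in idelalisib libraries was Nfkb2 with 118 ± 10.7 CPM per kb (SD, n = 3), Nfkbia with 95.4 ± 7.41, Nfkb1 with 53.5 ± 2.07 and Rela with 43.3 ± 3.27. Tnfaip3, Relb, Rel, Nfkbid, Nfkbie and Nfkbiz followed, at 23.5 to 12.2 CPM per kb, and each of these overlapped its neighbour in the order. In control libraries, Nfkbia with 109 ± 13.1 and Nfkb2 with 106 ± 1.78 CPM per kb led and overlapped. Tnfaip3 with 74.8 ± 1.98, Nfkb1 with 62.9 ± 1.48 and Rela with 47.6 ± 2.90 CPM per kb came next, none overlapping its neighbour. Nfkbiz, Relb and Rel followed at 27.3 to 26.2 CPM per kb and overlapped, and Nfkbid with 13.1 ± 1.35 and Nfkbie with 10.2 ± 0.715 CPM per kb came last.

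Tnfaip3 thus ranked 5 of 10 with idelalisib and 3 in controls, and Nfkbiz ranked 10 with idelalisib and 6 in controls. The order depends on the length used. The deposited length of Nfkb1 is 12061 bases, against 4117 bases for its longest coding transcript in GENCODE M21. With that length, Nfkb1 led in both groups, at 157 ± 6.06 CPM per kb with idelalisib and 184 ± 4.35 in controls, while Tnfaip3 ranked 6 with idelalisib and 2 in controls.

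Shares within the set do not depend on how libraries were scaled. Of the summed level per kb of the 5 inhibitor genes, Tnfaip3 made up 14.7% ± 1.03 with idelalisib and 32.0% ± 1.69 in controls (SD, n = 3). Nfkbia made up 59.7% ± 1.46 with idelalisib and 46.3% ± 2.46 in controls. The share of Nfkbie was 8.73% ± 0.649 with idelalisib and 4.39% ± 0.635 in controls, and that of Nfkbiz was 7.70% ± 1.05 with idelalisib and 11.7% ± 0.569 in controls. No share of an inhibitor gene overlapped between groups, though a fall of one gene raises the shares of the rest.

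Among the 5 Rel factors, the shares of Nfkb2 and Nfkb1 did not overlap between groups. Nfkb2 made up 45.8% ± 2.25 with idelalisib and 39.3% ± 0.537 in controls, and Nfkb1 made up 20.8% ± 1.33 with idelalisib and 23.4% ± 0.548 in controls. The shares of Rel, Rela and Relb overlapped between groups. With coding transcript lengths the same shares overlapped and no difference changed its sign, and Nfkb1 rather than Nfkb2 was the largest part of the factor pool (43.4% ± 2.01 with idelalisib and 46.6% ± 0.793 in controls).

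**Figure D4:**
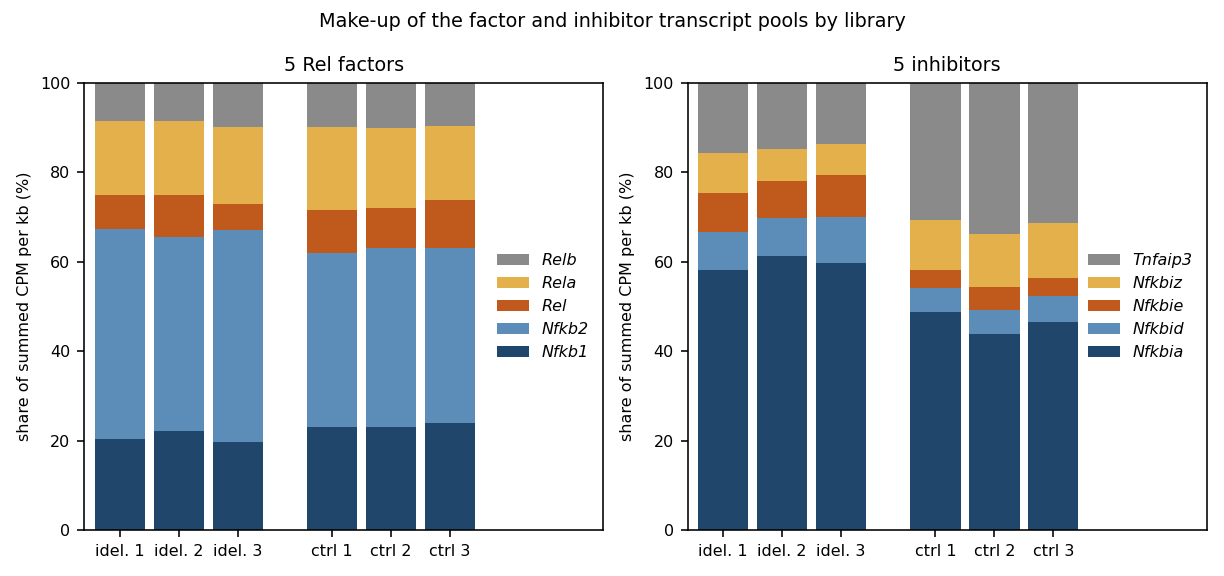
Share of each gene in the summed CPM per kb (deposited lengths) of the Rel factors, left, and of the inhibitor genes, right, in each idelalisib (idel.) and control (ctrl) library. The Tnfaip3 segment is 13.7% to 15.7% with idelalisib and 30.7% to 33.9% in controls. With idelalisib the factor pools have a wider Nfkb2 and a narrower Nfkb1 segment, and their other segments overlap between groups.

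Tnfaip3, Nfkbie, Nfkbia, Rel and Nfkb1 were also set against Rela in the same library, a family of 5 ratios of CPM per kb. The Tnfaip3 to Rela ratio was 0.568, 0.599 and 0.470 with idelalisib and 1.498, 1.504 and 1.73 in controls (exact two-sided permutation test, p = 0.1, adjusted over the 5 ratios 0.25). The value 0.1 is the smallest that 3 against 3 libraries allow. The Nfkbie to Rela ratio was 0.315, 0.326 and 0.324 with idelalisib and 0.203, 0.227 and 0.215 in controls (exact permutation p = 0.1, adjusted 0.25). Neither of these ratios overlapped between groups.

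The Nfkbia to Rela ratio was 2.21 ± 0.220 with idelalisib and 2.29 ± 0.315 in controls (SD, n = 3, exact permutation p = 0.9, adjusted 0.9), and the groups overlapped. The ratios of Rel and of Nfkb1 to Rela overlapped as well. Rel stood at 0.456 ± 0.112 of Rela with idelalisib and 0.553 ± 0.0829 in controls (exact permutation p = 0.4, adjusted 0.625). Nfkb1 stood at 1.24 ± 0.101 of Rela with idelalisib and 1.33 ± 0.115 in controls (exact permutation p = 0.5, adjusted 0.625).

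The rest of the pathway was read from 7 lists ordered by role, with 93 genes of which 87 were tested. With idelalisib 25 of the 87 were lower, 22 were higher and 40 were not called, while 44.6% of all genes tested were called in either direction. By direction, 22.4% of all genes tested were lower and 22.2% were higher. The median log2 fold change of the 87 list genes was -0.11. The lists were picked with earlier results in view and are described by their counts. The members of the T cell receptor route are upstream. Of 14 genes between the receptor and IKK, 6 were lower, 2 higher and 6 not called (median log2 fold change -0.16). The count of lower genes was 3 without idelalisib replicate 1 and 10 without idelalisib replicate 2, and library size alone gave 3 lower and 3 higher. Without any 1 of the control libraries, 1 gene was higher.

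Ikbkb, the catalytic subunit IKKβ, had 118, 119 and 117 CPM with idelalisib and 163, 155 and 166 CPM in controls (log2 fold change -0.45, edgeR adjusted p = 0.000279). Ikbkg, the regulatory IKK subunit NEMO, moved the other way, with 60.8, 65.7 and 58.7 CPM with idelalisib and 45.4, 44.4 and 46.9 CPM in controls (0.44, adjusted p = 0.000987). Neither of these genes overlapped between groups.

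The other IKK kinase gene Chuk, which encodes IKKα, had a log2 fold change of -0.16 that did not pass (edgeR adjusted p = 0.214), and it was called lower without idelalisib replicate 2 (-0.27, adjusted p = 0.0125). Tab1, an adaptor of the kinase TAK1, was lower (-0.43, adjusted p = 0.0151), and its call was lost in 4 alternative fits.

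In the non-canonical route, 1 of 6 genes was higher and 2 were lower (1 lower with library size alone). The background over all genes tested was 22.2% higher and 22.4% lower. Map3k14, the gene of the kinase NIK, rose to 72.9, 68.5 and 85.2 CPM with idelalisib, against 58.1, 58.0 and 56.7 CPM in controls (log2 fold change 0.39, edgeR adjusted p = 0.00385). Traf3 and Birc2 encode the adaptor and the cIAP1 ubiquitin ligase of the complex that degrades NIK. Birc2 fell to 138, 126 and 123 CPM with idelalisib, against 205, 224 and 223 CPM in controls (-0.75, adjusted p = 7.21e-06). Traf3 was lower by 0.28 on the log2 scale (adjusted p = 0.00953), a call lost with library size alone (adjusted p = 0.207).

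Of 15 TNF receptor family members and adaptors, 3 were higher, 3 lower and 9 not called. That was near the shares over all genes tested, 22.2% higher and 22.4% lower. Without idelalisib replicate 2, and likewise with library size alone, 5 of the 15 were higher, and without idelalisib replicate 3, 6 were lower. Tnfrsf8, the gene of the costimulatory receptor CD30, rose to 252, 210.4 and 284 CPM with idelalisib, against 129, 111 and 119 CPM in controls (log2 fold change 1.06, edgeR adjusted p = 3.75e-06). Tnfrsf9, the gene of the costimulatory receptor 4-1BB, fell to 504, 395 and 532 CPM with idelalisib, against 761, 824 and 755 CPM in controls (-0.71, adjusted p = 8.61e-05). Cd27, another costimulatory receptor, had a log2 fold change of 0.57 (adjusted p = 0.000639), and Tnfrsf25, the gene of death receptor 3, one of -0.64 (adjusted p = 0.000358).

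The interleukin-1, interleukin-18 and Toll-like receptor route held 6 higher and 4 lower genes of 11 tested. For comparison, 22.2% of all genes tested were higher, 22.4% lower and 44.6% called in either direction. Il1rl1, the receptor for interleukin-33, was at 5.40 ± 0.729 CPM with idelalisib and 10.1 ± 1.19 CPM in controls (SD, n = 3, log2 fold change -0.91, edgeR adjusted p = 0.00102). Il18rap, the accessory chain of the interleukin-18 receptor, had the same log2 fold change of -0.91 (adjusted p = 0.0154), which lost its call without idelalisib replicate 3 (adjusted p = 0.0644) and with a replicate block (0.0626). Tlr1, a Toll-like receptor gene, rose to 22.2 ± 1.99 CPM with idelalisib, against 9.48 ± 1.63 CPM in controls (1.22, adjusted p = 1.83e-05). Tlr2 rested on few reads, at 2.71 ± 0.351 CPM with idelalisib and 1.19 ± 0.690 CPM in controls (adjusted p = 0.0179), and its call was lost in 3 of 13 alternative fits.

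Genes of A20's partners and other brakes on the pathway were lower where they were called. In that list 6 of 16 genes were lower, none was higher and 10 were not called, with a median log2 fold change of -0.11. Among all genes tested, 22.4% were lower, 22.2% were higher and 44.6% were called in either direction. At an unadjusted p under 0.05 edgeR put 1 of the 16 higher, and DESeq2 and limma-voom called 0 higher. Scaling by library size alone called 3 higher, omitting the count filter 2, leaving out idelalisib replicate 2 called 2 and leaving out replicate 3 called 1. Tnip3, an A20-binding inhibitor, fell to 10.1, 9.35 and 10.3 CPM with idelalisib, against 23.2, 25.3 and 34.0 CPM in controls (-1.47, SE 0.15, edgeR adjusted p = 5.38e-06). Tax1bp1, an adaptor that brings A20 to its substrates, fell to 318, 369 and 286 CPM with idelalisib, against 483, 491 and 496 CPM in controls (-0.60, adjusted p = 0.000150). Tnip2 and Tnip1, which encode other A20-binding proteins, were lower by 0.57 and 0.32 on the log2 scale (adjusted p = 8.78e-05 and 0.00911). The call of Tnip1 was lost with library size alone (adjusted p = 0.134).

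Peli1, a ubiquitin ligase that restrains c-Rel in T cells, was lower by 0.47 on the log2 scale (edgeR adjusted p = 0.00446). Cyld, a deubiquitinase that acts beside A20, was at 205 ± 23.3 CPM with idelalisib and 192 ± 6.71 CPM in controls (SD, n = 3, adjusted p = 0.385). It was called higher without idelalisib replicate 3 (log2 fold change 0.20, adjusted p = 0.0296) and with library size alone (0.26, adjusted p = 0.0318). Of the 2 IκB family genes outside the set, the typical IκB gene Nfkbib had 59.4, 54.6 and 77.0 CPM with idelalisib and 141, 146 and 135 CPM in controls. It fell 2.20-fold (log2 fold change -1.14, SE 0.11, adjusted p = 3.55e-06). Bcl3, an atypical nuclear IκB, was at 140.2 ± 21.3 CPM with idelalisib and 133 ± 7.09 CPM in controls (adjusted p = 0.577).

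Of 23 textbook target genes of NF-κB that could be tested, 10 were higher, 3 were lower and 10 were not called (median log2 fold change 0.22). The shares over all genes tested were 22.2% higher and 22.4% lower. Without idelalisib replicate 2, 5 were lower. Bcl2a1a, Vcam1, Csf2 and Il6 had too few reads to test. Tnf, the cytokine that both drives and answers NF-κB, rose to 64.1, 67.0 and 75.0 CPM with idelalisib, against 49.3, 46.4 and 53.6 CPM in controls (log2 fold change 0.46, edgeR adjusted p = 0.00118). Il2ra, which encodes the alpha chain of the interleukin-2 receptor, rose to 2263, 2452 and 2263 CPM with idelalisib, against 1542, 1591 and 1457 CPM in controls (0.60, adjusted p = 2.84e-05). Neither gene overlapped between groups.

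Il2, the T cell growth factor, had 13.4, 41.8 and 17.7 CPM with idelalisib and 3.50, 2.71 and 2.86 CPM in controls (log2 fold change 3.00, edgeR adjusted p = 0.00778). Replicate 2 gave by far the highest of these values. Ccl5 and Cxcl10, chemokine genes that interferons also induce, had log2 fold changes of 2.64 and 1.21 (adjusted p = 1.30e-08 and 0.0344). Cxcl10 rested on few reads and lost its call in 3 of 13 alternative fits. Ier3, an immediate early gene, fell to 43.2, 58.1 and 49.9 CPM with idelalisib, against 142, 87.3 and 164 CPM in controls (-1.38, adjusted p = 0.00572), and lost its call without idelalisib replicate 3 (adjusted p = 0.0619). The survival gene Bcl2l1 was at 182 ± 9.50 CPM with idelalisib and 199 ± 10.1 CPM in controls (SD, n = 3, adjusted p = 0.181), and its sign turned with library size alone.

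**Figure D5:**
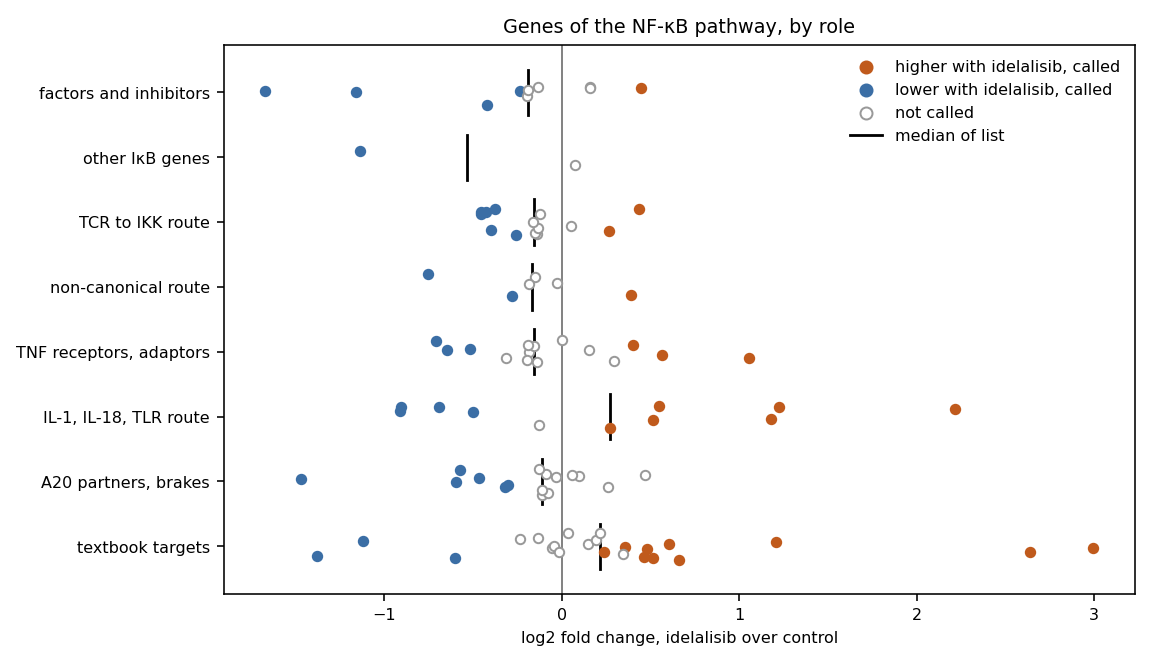
Log2 fold change of idelalisib over control for the tested genes of the set (top) and of the 7 pathway lists, 1 point a gene, with the median of each list as a black line. Called points of the A20 partners and other brakes lie left of 0 (6 of 16), and most called points of the textbook targets lie right of it (10 of 13). Over all genes tested, 22.4% were called lower and 22.2% higher.

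Markers of other cells were read beside these results, since many immune cells express the 10 genes. The 13 B cell markers summed to 78.9 to 88.7 CPM with idelalisib and 67.7 to 69.8 CPM in controls. Of the 9 tested B cell markers, 5 were called higher (Cd79a, Cd79b, Bank1, Pax5 and Cd22), against 22.2% of all genes tested. Most of the sum came from Ighm, at 51.0 CPM with idelalisib and 43.4 CPM in controls, and Ebf1, at 14.7 CPM with idelalisib and 15.4 CPM in controls, neither of them called. Cd79a, Ms4a1 and Pax5 were each at or below 2.96 CPM on average in both groups. The 13 macrophage and dendritic cell markers summed to 20.8 to 22.2 CPM with idelalisib and 29.4 to 29.8 CPM in controls. Cd68 was lower, at 10.5 CPM with idelalisib and 16.7 CPM in controls (edgeR adjusted p = 0.00372), and Zbtb46, at 7.76 CPM with idelalisib and 10.8 CPM in controls, was not called. Siglech had no reads in any library and Clec9a, Fcgr1 and Adgre1 had 1 to 3 reads in all.

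The 4 NK cell markers summed to 1.51 to 2.69 CPM with idelalisib and 1.81 to 3.10 CPM in controls, with Ncr1 at 0. The 5 granulocyte markers summed to 119.5 to 149 CPM with idelalisib and 48.7 to 51.0 CPM in controls. Ly6g and Cxcr2 carried nearly all of that sum, while S100a8 and S100a9 had 4 and 1 reads in all. Ly6g and Cxcr2 were called higher (log2 fold change 1.59 and 0.84, edgeR adjusted p = 4.24e-08 and 0.00177), and Mmp9 was not called. The 2 CD8 T cell markers summed to 7.24 to 9.50 CPM with idelalisib and 4.43 to 7.86 CPM in controls. Of these, Cd8a was higher, at 3.40 CPM with idelalisib and 1.82 CPM in controls (log2 fold change 0.91, edgeR adjusted p = 0.0360). The part of these cells in the results for the 10 genes was not tested.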

How the data were processed

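RNA-seq of 3 idelalisib and 3 control cultures was deposited as a table of raw read counts per gene, with gene lengths. The tools named in the submitters' processing notes are HISAT2 2.0.5, fastp and featureCounts 1.5.0-p3, and the build is mm10. The sources used here do not give the annotation release, whether counting used strand, or how multiply mapped reads were handled. No other sample columns were present (0).

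From the deposited counts, edgeR 4.0.16 in R 4.3.3 was run with TMM scaling, filterByExpr (minimum count 10, minimum total 15) and a robust quasi-likelihood test of group, with Benjamini-Hochberg adjustment over all 14530 genes tested. Calls were made at an adjusted p under 0.05. Intervals are 95% intervals of the fitted fold change, with a width that reflects the spread between libraries. Ratios were compared by exact permutation in scipy 1.17.1. Alternatives used DESeq2 1.42.0, limma 3.58.1 (voom), other scalings and filters, a replicate block and each library left out. Coding transcript lengths were added as an alternative after the data were seen.

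The 10 genes and the lists were chosen with earlier results of these data known. All 10 are named. From each pathway list up to 4 called genes with the largest absolute log2 fold change and a mean of at least 1 CPM are named, plus 15 genes of known pathway roles whatever their outcome, of which some are not reported here.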

Additional observations from a re-analysis of the deposited data

How the results depend on the processing

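Tnfaip3, Nfkbiz and Nfkbie kept their direction and their call in all 14 alternative fits. DESeq2 and limma-voom also called 1 of the 10 genes higher and 4 lower. With library size as the only scaling, 3 of the 10 genes were called higher and 2 lower, against 1 higher and 4 lower with TMM, and it turned the sign of Rela (0.020) and of Bcl2l1 (0.020). An adjusted p under 0.01 left 2 lower, and a call with a log2 fold change of at least 0.5 left 0 higher and 2 lower (for the pathway lists 13 higher and 14 lower, against 22 and 25). With 1 library left out, 1 to 2 of the 10 genes were higher (2 without idelalisib replicate 2) and 2 to 5 were lower (2 without idelalisib replicate 1 or control replicate 3, 5 without idelalisib replicate 2 or 3). For the pathway lists the ranges were 16 to 27 higher and 21 to 33 lower, and without idelalisib replicate 3 the sign of Bcl3 turned (-0.021), while without idelalisib replicate 2 Bcl3 was called higher (0.19). The causes were not tested.

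Same-numbered libraries of the groups correlated at 0.09, -0.14 and -0.12 in their deviations from the group means, so the numbers were not taken to pair the samples. With a replicate block, 1 of the 10 genes was higher and 4 were lower, and over all genes 2910 were higher and 3051 lower. Not every library correlated best with its own number.

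With 3 libraries a group, the intervals of Nfkb2, Rela, Relb, Nfkbia and Nfkbid include both 0 and differences as large as some called here. Read depth was at least 407 counts for every gene of the set in every library, the lowest being Nfkbie in control replicate 3. Levels per kb and their order moved with the length used.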
